A study of Mus musculus with 6 samples.

Results

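The enzymes that attach isoprenoid lipids to proteins, finish the prenylated protein tail and build the side chain of ubiquinone were examined in kidneys of diabetic mice with and without atorvastatin. The members were chosen by name as 10 enzymes that use isoprenoids, and all 10 were found among the 17684 genes of the table. They were 5 prenyltransferase subunits (Fnta, Fntb, Pggt1b, Rabggta and Rabggtb), 3 enzymes of CAAX processing (Rce1, Zmpste24 and Icmt) and 2 enzymes of the ubiquinone side chain (Pdss1 and Coq2). Kidney RNA of 6 db/db mice, which lack a working leptin receptor and become obese and diabetic, was sequenced as 1 library per mouse. The strain was labelled C57 BLKS/L, and the study's methods name C57BLKS/J. The Db group (n = 3) had received saline for 40 weeks, and the Db + Ato10 group (n = 3) atorvastatin at 10 mg/kg of body weight, by gavage on 5 consecutive days of each week, also for 40 weeks. All 6 mice were 50 weeks old, and only mice alive at that age could be sampled. One label field gave atorvastatin for all 6 mice, and the groups follow the field that separates saline from atorvastatin.

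Farnesyl and geranylgeranyl diphosphate are made in the mevalonate pathway, which statins slow. Farnesyltransferase and the geranylgeranyl transferases (GGTases) transfer these lipids to cysteines near the carboxyl end of small GTPases, lamins and G protein gamma subunits, which lets many of them sit in membranes. The same precursors supply the polyprenyl tail of ubiquinone, the electron carrier of the mitochondrial respiratory chain on which the kidney tubule depends.

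The deposited expected counts, which are reads estimated per gene and not whole for every gene, were rounded and summed to 13134931, 11381681 and 12426043 in Db replicates 1 to 3. For Db + Ato10 replicates 1 to 3 the totals were 14578004, 14667894 and 13133227. At these depths 3 counts corresponded to 0.198 to 0.260 CPM (counts scaled to the TMM-normalized library size), and the members had between 120 and 2323 counts in every library. Several libraries stood apart from their group. On the first principal component, which held 71.1% of the variance, Db replicates 1 to 3 lay at -55.4, -26.9 and -52.0, and Db + Ato10 replicates 1 to 3 at 107, 46.1 and -18.8, so replicate 3 of the treated group lay nearest to the Db libraries. Db replicate 1 had 2 counts in total for the 4 Y-linked genes examined, whereas the other libraries had 1419 to 2116, although the study's methods state that only males were enrolled. The log2 fold change of every enzyme without this library is therefore also given. Kidney markers were present in all libraries, since none of the 8 proximal tubule or 4 thick ascending limb markers was at 0 in any library.

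Of the 10 enzymes, Fntb had the largest difference between the groups on the counts, and 0 passed the test. On the log2(TPM + 1) scale, Rabggtb (-0.359) and Coq2 (-0.344) had larger differences in size than Fntb (0.339). The median over all tested genes on that scale was itself below 0, at -0.093. With edgeR's quasi-likelihood test, 0 of the 10 met both criteria for a differentially expressed gene (DEG), that is a change of more than 1.5-fold together with an adjusted p (Benjamini-Hochberg) under 0.05, as was the case for 0 of all 13679 tested genes (0%). At an unadjusted p under 0.05 there were 0 of the 10 members, beside 2314 of all tested genes (16.9%). DESeq2 also called 0 of the 10, beside 884 of all genes (6.46%), and gave 1 member, Fntb, an unadjusted p under 0.05, beside 2621 of all genes (19.2%). Without Db + Ato10 replicate 3, edgeR called 1106 of 13517 genes (8.18%), again with 0 of the 10. The median log2 fold change of the members was -0.029, with 5 above and 5 below 0, beside -0.0063 over all tested genes. Leaving out Db + Ato10 replicate 1 gave a median of 0.058, and leaving out replicate 2 of that group gave -0.12. The median size of the difference, regardless of sign, was 0.18 on the log2 scale for the members and 0.29 for all tested genes, and 0 members passed the 1.5-fold line, beside 25.2% of all tested genes. In CPM, 1 member lay higher in every Db + Ato10 library than in any Db library, beside 1640 of all genes (12%). Another 2 lay lower throughout, beside 1540 of all genes (11.3%), so that 3 of 10 did not overlap in either direction, beside 23.2%. The share of members without overlap thus lay near that of all tested genes. The median coefficient of variation of the members was 10.4% in the Db group and 15.2% in the Db + Ato10 group, beside 13.5% and 22.1% over all tested genes. All 10 intervals (95%) of the log2 fold change included 0, and across the members they reached from -0.73 (Coq2) to 0.94 (Fntb).

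**Figure D1:**
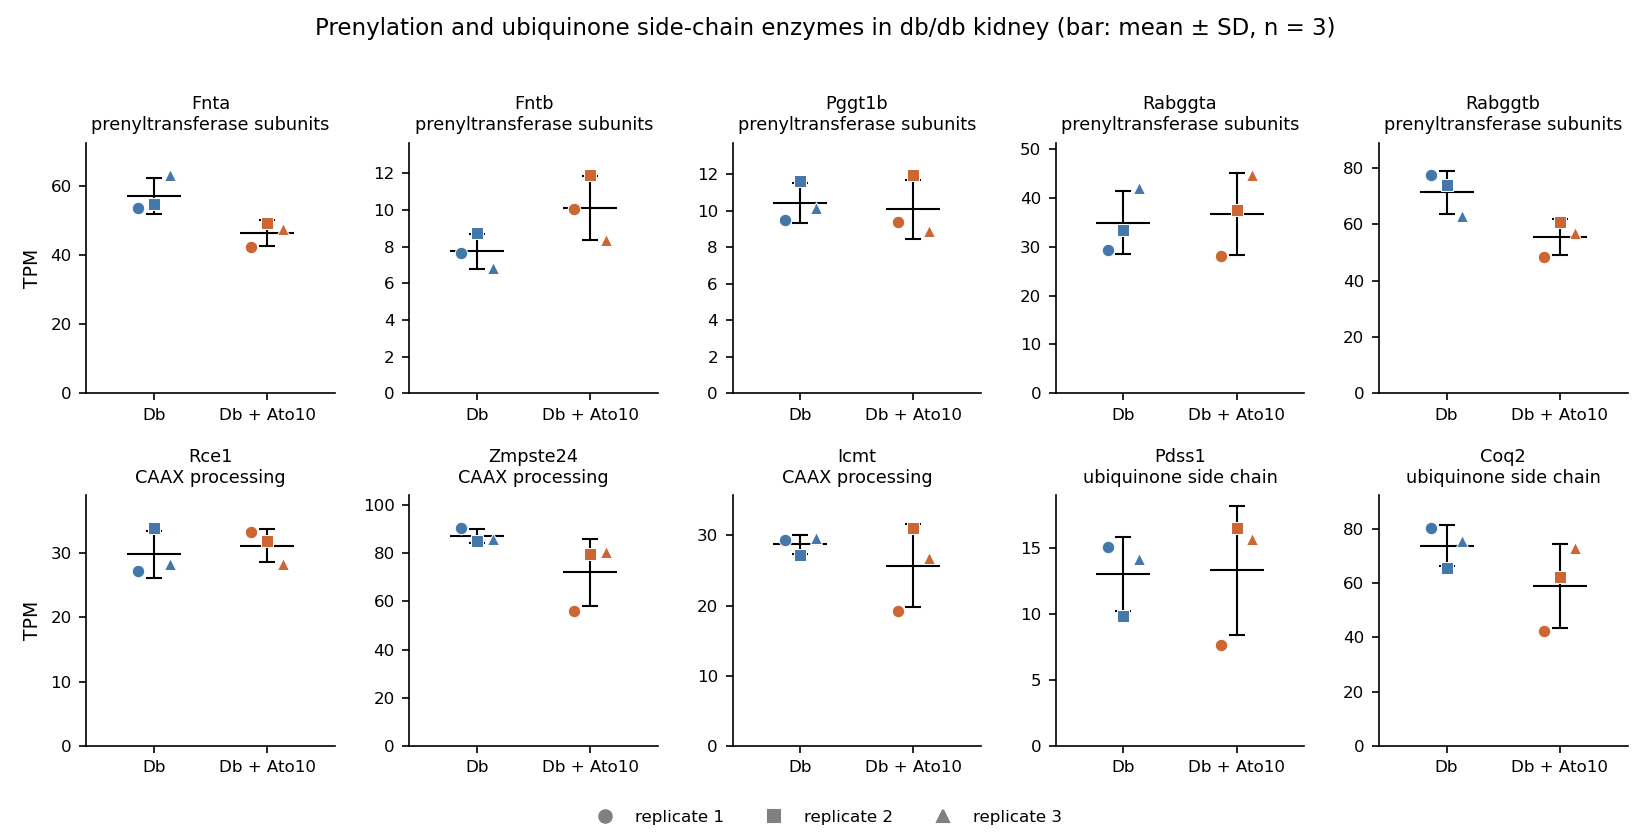
Level of each of the 10 enzymes in kidney, in TPM (vertical axis from 0), in 3 Db (blue) and 3 Db + Ato10 (orange) libraries; the shape gives the replicate, and the bars give the mean ± SD. Fnta, Rabggtb and Zmpste24 lay lower in the 3 Db + Ato10 libraries than in any Db library on this scale, and the other 7 enzymes overlapped. Of all tested genes, 16.7% lay lower and 8.19% higher without overlap in TPM. In CPM Fnta and Rabggtb lay lower without overlap, Fntb lay higher and Zmpste24 overlapped.

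The levels of the enzymes spanned nearly an order of magnitude in TPM, a unit scaled to transcript length and library total. Zmpste24 had the highest mean over the 6 libraries, 79.6 TPM, followed by Coq2 with 66.4, Rabggtb with 63.4 and Fnta with 51.7 TPM. Rabggta, Rce1 and Icmt followed with 35.8, 30.5 and 27.2 TPM, and Pdss1, Pggt1b and Fntb with 13.2, 10.3 and 8.92 TPM. Over all 6 libraries the ranges of neighbours in this order overlapped, except between Icmt (19.3 to 31.1 TPM) and Pdss1 (7.66 to 16.5 TPM). Within the Db group Zmpste24 and Coq2, Fnta and Rabggta, and Pggt1b and Fntb did not overlap either, whereas each of these pairs overlapped in the Db + Ato10 group. Pggt1b and Fntb were nearly equal there, with means of 10.09 and 10.1 TPM.

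Fnta (NCBI Gene 14272) encodes the alpha subunit that farnesyltransferase and GGTase I share. It had 53.5, 54.6 and 63.0 TPM in Db replicates 1 to 3 and 42.3, 49.2 and 47.6 TPM in Db + Ato10 replicates 1 to 3. All 3 treated libraries lay below all 3 Db libraries, by a margin smaller than the spread within the Db group. The means were 57.0 ± 5.21 and 46.4 ± 3.65 TPM (SD, n = 3 each). The log2 fold change from the counts was -0.21 with a standard error of 0.12 and a 95% interval from -0.51 to 0.082, and the adjusted p was 0.394 (edgeR quasi-likelihood F test, Benjamini-Hochberg). With each library left out it ranged from -0.25 to -0.14, the latter without Db replicate 3.

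Fntb (NCBI Gene 110606), the catalytic beta subunit of farnesyltransferase, had the smallest unadjusted p among the members with edgeR on the counts of all libraries. Its level was 7.63, 8.73 and 6.85 TPM in Db replicates 1 to 3 and 10.1, 11.9 and 8.36 TPM in Db + Ato10 replicates 1 to 3. On this scale Db + Ato10 replicate 3 lay within the Db range, whereas in CPM, at 12.8, it lay above the highest Db library, at 12.5. Fntb had a log2 fold change of 0.47 with a standard error of 0.20 (95% interval -0.0019 to 0.94). The unadjusted p was 0.0507 and the adjusted p 0.297 with edgeR (quasi-likelihood F test, Benjamini-Hochberg), and 0.0379 and 0.224 with DESeq2. Without Db replicate 1 the log2 fold change was 0.47, and with each library left out in turn it ranged from 0.39 to 0.59. Exons of Fntb share bases with the neighbouring gene Churc1 on the same strand, 257 of 3987 bases in GENCODE vM21, so reads may have been divided between them. Churc1 itself had a log2 fold change of 0.037.

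Pggt1b (NCBI Gene 225467), the beta subunit of GGTase I, had 9.49, 11.6 and 10.1 TPM in the Db libraries and 9.42, 12.0 and 8.91 TPM in the Db + Ato10 libraries. The groups overlapped almost fully. Its log2 fold change was 0.030, with a 95% interval from -0.33 to 0.39, and its sign turned without Db replicate 1 (-0.021), on leaving out Db + Ato10 replicate 2 (-0.050) and, at -0.048, on the log2(TPM + 1) scale, where the median over all tested genes was itself -0.093.

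Rabggta and Rabggtb form GGTase II, which modifies Rab GTPases presented by an escort protein. Rabggta (NCBI Gene 56187), the alpha subunit, had 29.4, 33.5 and 41.9 TPM in the Db libraries and 28.0, 37.4 and 44.6 TPM in the Db + Ato10 libraries. Each group held both low and high libraries, with replicate 3 at the top of each. Its log2 fold change was 0.15 (standard error 0.21), and it ranged from -0.013 without Db + Ato10 replicate 3 to 0.30 without Db replicate 3. Rabggtb (NCBI Gene 19352), the catalytic beta subunit, had 77.4, 73.8 and 62.9 TPM in the Db libraries and 48.4, 61.0 and 57.0 TPM in the Db + Ato10 libraries. Every treated library lay below every Db library, with Db replicate 3 and Db + Ato10 replicate 2 close to each other. The log2 fold change was -0.28 with a standard error of 0.13 (95% interval -0.60 to 0.046), with an adjusted p of 0.338 (edgeR, Benjamini-Hochberg). It ranged from -0.36 to -0.20 with each library left out, the latter without Db replicate 1. Annotated exons of Rabggtb, pooled over all its transcripts in GENCODE vM21, share 71 and 80 of 2421 bases with the small nucleolar RNAs Snord45b and Snord45c on the same strand. Those of Zmpste24 likewise share 125 of 7145 bases with the small nucleolar RNA Gm26186, on the same strand.

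Since each transferase needs both of its subunits, the ratio of their TPM was taken within each library, a measure chosen after the values had been seen. The level of Fnta was 7.01, 6.25 and 9.20 times that of Fntb in Db replicates 1 to 3 and 4.20, 4.14 and 5.70 times in Db + Ato10 replicates 1 to 3. All 3 treated libraries were lower than every Db library. The means were 7.49 ± 1.53 and 4.68 ± 0.882 (SD), a log2 difference of -0.68 that ranged from -0.83 to -0.52 with each library left out. A two-sided exact permutation test gave p = 0.1, the smallest value that 3 against 3 libraries allow. The ratio of Fnta to Pggt1b, the other partner, was 5.51 ± 0.769 in the Db group and 4.65 ± 0.630 in the Db + Ato10 group (SD, n = 3 each; exact permutation p = 0.2), and the groups overlapped. Rabggta stood at 0.380, 0.454 and 0.667 of Rabggtb in the Db libraries and at 0.579, 0.613 and 0.782 in the Db + Ato10 libraries, also with overlap (two-sided exact permutation p = 0.3). That log2 difference of 0.43 ranged from 0.25 (Db replicate 1 left out) to 0.65 (Db replicate 3 left out).

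**Figure D2:**
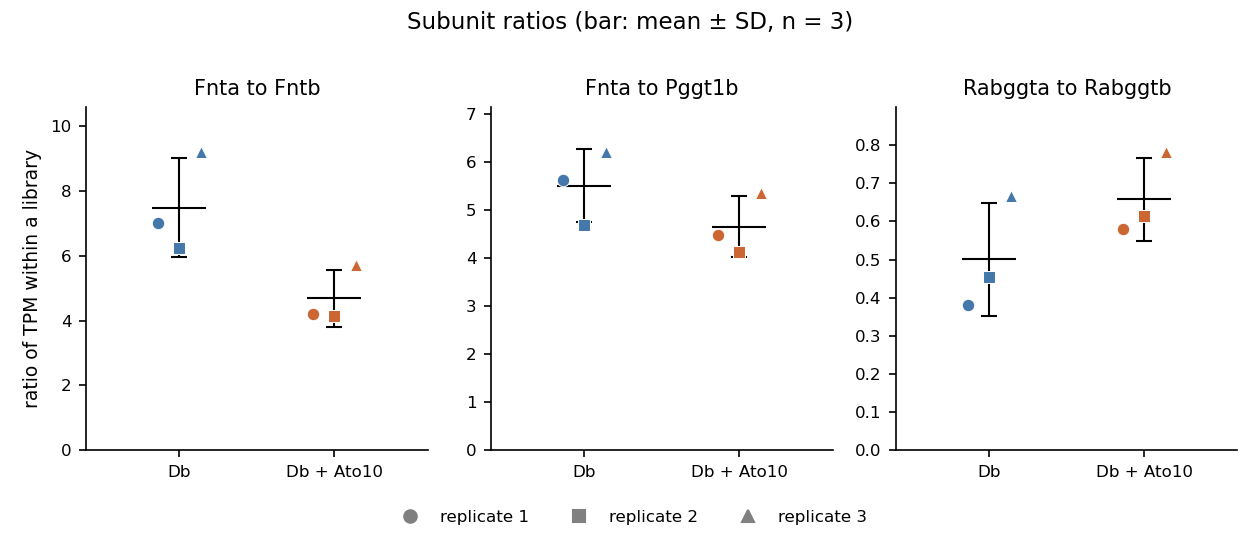
Ratio of TPM between subunits within each library (vertical axes from 0) for farnesyltransferase (Fnta to Fntb), GGTase I (Fnta to Pggt1b) and GGTase II (Rabggta to Rabggtb); symbols are the 3 libraries per group and bars the mean ± SD. The ratio of Fnta to Fntb was 6.25 to 9.20 in Db and 4.14 to 5.70 in Db + Ato10, without overlap, and the other ratios overlapped.

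After prenylation, Rce1 or Zmpste24 removes the last residues of the CAAX tail and Icmt methylates the exposed cysteine; Zmpste24 also makes the final cut that matures lamin A. Zmpste24 (NCBI Gene 230709) had 90.4, 84.9 and 86.1 TPM in Db replicates 1 to 3 and 56.1, 79.7 and 80.4 TPM in Db + Ato10 replicates 1 to 3. Db + Ato10 replicate 1 was far below the rest, and the other treated libraries lay just under the Db range in TPM. In CPM the groups overlapped, since Db + Ato10 replicate 3 had 167.5 and Db replicate 2 had 165.8. No overlap with the treated group lower was found on the TPM scale for 2289 of all tested genes (16.7%), and with the treated group higher for 1120 (8.19%), so that scale leaned towards lower values. From the counts, the difference of Zmpste24 was -0.20 on the log2 scale, with a standard error of 0.16, and it was -0.065 without Db + Ato10 replicate 1.

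Rce1 (NCBI Gene 19671), the endoprotease for most CAAX proteins, had 27.2, 33.9 and 28.3 TPM in the Db libraries and 33.4, 31.8 and 28.4 TPM in the Db + Ato10 libraries. The ranges nearly coincided. Its log2 fold change was 0.16 with a 95% interval from -0.21 to 0.54, and it ranged from 0.087 without Db + Ato10 replicate 1 to 0.26 without Db replicate 2. Icmt (NCBI Gene 57295), the methyltransferase, had 29.4, 27.1 and 29.7 TPM in the Db libraries and 19.3, 31.1 and 26.7 TPM in the Db + Ato10 libraries. The treated libraries lay on both sides of the Db range, with replicate 1 lowest. The log2 fold change of Icmt was -0.087 (95% interval -0.49 to 0.32), and 0.063 without Db + Ato10 replicate 1.

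Pdss1 makes, together with Pdss2, the polyprenyl chain of ubiquinone, and Coq2 joins that chain to the ring precursor. Pdss1 (NCBI Gene 56075) had 15.1, 9.84 and 14.1 TPM in Db replicates 1 to 3 and 7.66, 16.5 and 15.7 TPM in Db + Ato10 replicates 1 to 3. The treated group held both the lowest and the highest library. Its log2 fold change was 0.11 with the widest interval of the members, -0.56 to 0.77, and its sign turned without Db replicate 2 (-0.037), on leaving out Db + Ato10 replicate 3 (-0.014) and, at -0.020, on the log2(TPM + 1) scale, again above the median over all genes. Coq2 (NCBI Gene 71883) had 80.3, 65.4 and 75.4 TPM in the Db libraries and 42.3, 62.1 and 72.8 TPM in the Db + Ato10 libraries. Db + Ato10 replicate 1 was lowest and replicate 3 lay within the Db range. The log2 fold change of Coq2 was -0.24 (standard error 0.20; 95% interval -0.73 to 0.25), -0.068 without Db + Ato10 replicate 1 and -0.42 when replicate 3 of that group was left out instead.

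Db + Ato10 replicate 1 held the lowest CPM value of 6 of the 10 enzymes, and the median deviation of the members from the Db mean was -0.32 in it, 0.12 in Db + Ato10 replicate 2 and 0.018 in Db + Ato10 replicate 3 (log2). The same library had 755.9 TPM summed over the 8 proximal tubule markers, against 2491 and 5054 TPM in Db + Ato10 replicates 2 and 3 and 5454, 4342 and 5455 TPM in the Db libraries. Slc34a1 was the most abundant of these markers, and 0 of the 8 had a higher mean in the treated group. The part of this shift in the values of the enzymes was not tested. In whole tissue, fewer cells of a type and less RNA per cell cannot be told apart. Without Db replicate 1, the library with few Y-linked counts, the log2 fold changes were -0.25 for Fnta, 0.47 for Fntb, -0.021 for Pggt1b, 0.044 for Rabggta and -0.20 for Rabggtb. They were 0.11 for Rce1, -0.16 for Zmpste24, -0.059 for Icmt, 0.24 for Pdss1 and -0.16 for Coq2, so Pggt1b was the only member whose sign turned.

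At the transcript level the members had 30 listed transcripts, of which 21 had enough counts to be tested. With edgeR 0 of the 21 were called, as were 0 of 30175 over all genes (0%), and 0 of the 21 had an unadjusted p under 0.05, beside 2471 of all transcripts (8.19%). DESeq2 also called 0 of them, beside 889 of all transcripts (2.95%). Fnta and Icmt were each listed with 1 transcript. For Fntb the curated transcript NM_145927.2 took 63.1%, 84.0% and 61.8% of the gene's expected counts in the Db libraries. In the Db + Ato10 libraries it took 68.2%, 59.0% and 80.9%, so its share varied as much within as between groups. The predicted noncoding transcript XR_001782356.1 of Pggt1b took 17.2%, 16.3% and 21.9% in the Db libraries and 2.89%, 20.4% and 10.1% in the Db + Ato10 libraries. Pdss1 was divided over 9 transcripts, and XR_001783151.1 was counted only in Db + Ato10 replicates 2 and 3 (45.8 and 30.5 expected counts), with 0 in the other 4 libraries. Such splits of few reads are estimates of the counting model. Exons of Pdss1 also share bases with Abi1, and those of Icmt with Rnf207, on the opposite strand, and whether counting used the strand is not given in the sources used here.

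**Figure D3:**
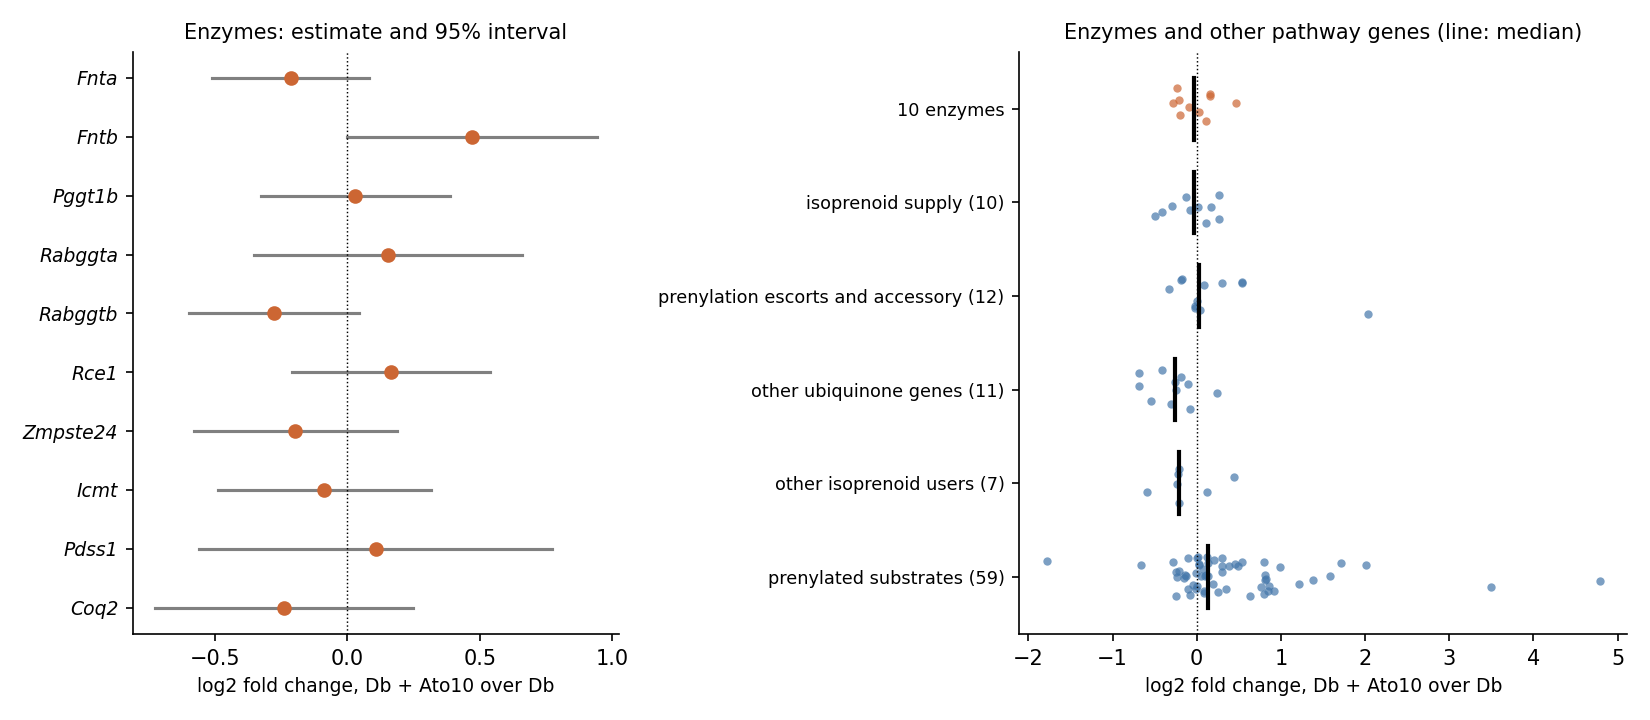
Left, log2 fold change of Db + Ato10 over Db for each enzyme (point) with its 95% interval (line), from edgeR on the counts of 3 libraries per group; right, log2 fold changes of the enzymes and of the other pathway genes by list (points, number of genes in brackets) with the list median (line). All 10 intervals include 0, and the list medians lie between -0.26 and 0.14.

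The enzymes that supply the isoprenoids gave a similar picture. Of the 10 genes from acetyl-CoA to the branch points, 0 were called by edgeR and 0 by DESeq2, beside 0% and 6.46% of all tested genes. With edgeR 0 had an unadjusted p under 0.05, beside 16.9% of all tested genes. The median log2 fold change was -0.037, and it turned to 0.11 without Db + Ato10 replicate 1 and to 0.058 when Db replicate 3 was left out. Fdps and Ggps1, which make farnesyl and geranylgeranyl diphosphate and were chosen after their values had been seen, had log2 fold changes of 0.27 and -0.12, with overlapping groups for both. With each library left out in turn these ranged from 0.12 (without Db replicate 2) to 0.50 (without Db replicate 3) for Fdps and from -0.22 (without Db replicate 3) to -0.046 (without Db replicate 1) for Ggps1.

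Among 12 escort and accessory genes 0 were called by edgeR or DESeq2, beside 0% and 6.46% of all tested genes. In this list 2 had an unadjusted p under 0.05 with edgeR, both higher in the treated group. This share of 16.7% was close to the 16.9% of all tested genes. Arhgdia, which holds prenylated GTPases in the cytosol, had 305.4, 336.0 and 318.3 TPM in the Db libraries and 531.8, 444.3 and 344.4 TPM in the Db + Ato10 libraries. Every treated library lay above every Db library. Arhgdia had a log2 fold change of 0.54, with a standard error of 0.22 and an adjusted p of 0.29 (edgeR, Benjamini-Hochberg), and of 0.35 without Db + Ato10 replicate 1. Pcyox1, which degrades prenylcysteines, had 84.0, 84.4 and 82.4 TPM in the Db libraries and 50.0, 71.5 and 70.6 TPM in the Db + Ato10 libraries. The treated libraries were all lower, and the log2 fold change was -0.33 (adjusted p = 0.334 with the same edgeR test), or -0.20 without Db + Ato10 replicate 1.

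Other genes of ubiquinone synthesis lay mostly below the Db level. Of 11 genes, 10 had a negative log2 fold change, with a median of -0.26 (-0.16 without Db + Ato10 replicate 2, -0.39 without replicate 3 of that group). Of these genes 0 were called by edgeR or DESeq2, beside 0% and 6.46% of all tested genes. With edgeR 0 had an unadjusted p under 0.05, beside 16.9% of all tested genes. The list median was -0.54 and -0.47 in Db + Ato10 replicates 1 and 2 and 0.050 in replicate 3, relative to the Db mean on the log2 scale. Coq5 and Coq9 had log2 fold changes of -0.41 and -0.69 over all 6 libraries (adjusted p = 0.484 and 0.315, edgeR). Without Db + Ato10 replicate 3, edgeR called both as lower (-0.83 and -1.05), beside 8.18% of all genes in that fit. When replicate 1 of that group was left out instead, these were -0.19 and -0.45 and not called, and 3 of the 11 genes were higher. Coq7, a hydroxylase of the ring, was the 1 gene of the 11 whose groups did not overlap, beside 11.3% of all tested genes lower without overlap. It had 103.2, 98.5 and 97.2 TPM in the Db libraries and 76.1, 71.5 and 87.9 TPM in the Db + Ato10 libraries. The log2 fold change of Coq7 was -0.25 (adjusted p = 0.379, edgeR with Benjamini-Hochberg), or -0.14 without Db + Ato10 replicate 2. The names Coq5 and Coq9 were chosen after their values had been seen. The summed proximal tubule markers were also lowest in Db + Ato10 replicates 1 and 2. Markers of other nephron segments had lower means as well, without overlap in 3 of 3 distal convoluted tubule markers, 3 of 5 collecting duct markers and 2 of 4 thick ascending limb markers and 1 of 8 proximal tubule markers, beside 11.3% of all tested genes in that direction. Summed over the list, distal convoluted tubule markers, led by Slc12a3, had 1193, 1557 and 981.6 TPM in the Db libraries and 549.3, 256.8 and 641.7 TPM in the Db + Ato10 libraries. The part of these cells in the values of the genes was not tested. The 7 other users of isoprenoids, for dolichol, vitamin K, heme A and transfer RNA, showed a median of -0.22 on the log2 scale (-0.042 without Db + Ato10 replicate 1). With edgeR 0 were called and 0 had an unadjusted p under 0.05, beside 0% and 16.9% of all tested genes. DESeq2 called 0, beside 6.46%.

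Several protein substrates of the enzymes lay higher in the Db + Ato10 group. Of 59 substrate genes, 0 were called with edgeR, 14 (23.7%) had an unadjusted p under 0.05, all higher, beside 16.9% of all tested genes, where 1533 were higher and 781 lower. The median log2 fold change was 0.14, 0.036 on the log2(TPM + 1) scale, where 33 of 58 were higher and the median over all genes was -0.093, and 0.25 without Db + Ato10 replicate 3. DESeq2 called 8 of the 59, all higher, beside 6.46% of all genes, and edgeR without Db + Ato10 replicate 3 called 10 higher and 1 lower, beside 8.18%. In CPM 10 of the 59 lay higher without overlap and 6 lower, beside 12% and 11.3% of all tested genes. Sorted by symbol after their values had been seen, 9 of 10 Ras family genes were higher, with a median log2 fold change of 0.25 that ranged from 0.093 without Db + Ato10 replicate 1 to 0.40 with replicate 3 of that group left out; on log2(TPM + 1) 7 of 10 were higher, with a median of 0.14. Of 21 Rab genes, substrates of Rabggta and Rabggtb, 10 were higher and 0 had an unadjusted p under 0.05, 5 lay lower without overlap and 0 higher, and the median was -0.0013, from -0.058 (Db replicate 2 left out) to 0.061 (Db replicate 1 left out).

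Nras, a Ras GTPase, had 12.6, 16.1 and 14.3 TPM in the Db libraries and 28.5, 31.5 and 16.8 TPM in the Db + Ato10 libraries. All treated libraries were above the Db range, with replicate 3 close to it. Its log2 fold change was 0.92 with a standard error of 0.25, and the Benjamini-Hochberg adjusted p was 0.239 from edgeR, 0.0361 from DESeq2 and 0.0287 from edgeR without Db + Ato10 replicate 3. Lmna, encoding the lamin matured by Zmpste24, had 36.4, 48.0 and 46.5 TPM in the Db libraries and 81.9, 85.3 and 54.0 TPM in the Db + Ato10 libraries. These groups did not overlap either, and the log2 fold change was 0.77. For Lmna the Benjamini-Hochberg adjusted p was 0.239 from edgeR, 0.0342 from DESeq2 and 0.0289 from edgeR without Db + Ato10 replicate 3.

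Markers of macrophages, neutrophils and fibroblasts also had higher means in the Db + Ato10 group. Podocyte and endothelium markers had median log2 fold changes of -0.21 and 0.027. The 6 macrophage markers, led by Cd74, all had a positive log2 fold change and summed to 436.5, 638.9 and 475.1 TPM in the Db libraries and 2821, 5171 and 536.3 TPM in the Db + Ato10 libraries. The 4 neutrophil markers, led by S100a9, summed to 21.4, 35.7 and 15.1 TPM in the Db libraries and 43880, 409.4 and 39.9 TPM in the Db + Ato10 libraries, with Ly6g and Retnlg each at 0 in at least 1 library. The 5 fibroblast markers, led by Acta2, summed to 54.6, 54.9 and 40.5 TPM against 407.7, 213.8 and 68.2 TPM. In each of these summed lists Db + Ato10 replicate 3 was the treated library nearest to the Db libraries. The part of these cells in the levels of the substrates and enzymes was not tested.

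As a description over the 6 libraries, the tested genes whose log2 CPM followed that of Fntb most closely were Mkl2, Map3k1 and Chaf1b, with Pearson correlations of 0.996, 0.995 and 0.993. These genes were taken as the highest of all tested genes, and the libraries share the group difference.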

How the data were processed

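Kidney RNA was sequenced on BGISEQ-500. The authors deposited expected counts, TPM and FPKM per gene, and expected counts and TPM per transcript. The submitters' processing notes name HISAT, Bowtie2 2.2.5 and mm9; the counter and annotation are not given in the sources used here. Expected counts were rounded, and every gene that reached 10 counts in 3 or more libraries was fitted with edgeR 4.0.16 (TMM, quasi-likelihood F test, R 4.3.3) over all genes. DEG criteria were a change of more than 1.5-fold and an adjusted p under 0.05. Standard errors were derived from the size of the log2 fold change and its F statistic, and intervals are 95%. Alternatives used DESeq2 1.42.0, limma 3.58.1, other filters, units and each library left out. Fits were tested on simulated data. Figures were drawn with matplotlib 3.10.9.

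Members and lists were chosen with earlier results of these data known. All members were named. Of other lists, genes called with edgeR on all libraries were named, otherwise up to 4 non-overlapping genes with the smallest p, apart from some genes that were counted but are not reported here; for Fntb, the 3 genes most correlated with it. Fdps, Ggps1, Coq5 and Coq9 were named outside this rule, after their values had been seen. Exon overlaps were read from GENCODE vM21 (GRCm38). A planned sorting of substrates by their last residues was not analysed here. With 3 libraries per group, exact permutation cannot give p under 0.1.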

Additional observations from a re-analysis of the deposited data

How the results depend on the processing

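Members called were 0 in all alternatives run: DESeq2, limma-voom, upper-quartile scaling, 2 other filters, log2(TPM + 1), log2(TPM + 0.1), log2(FPKM + 1), no fold threshold, the replicate block and each library left out. The number of members at an unadjusted p under 0.05 was 0 with edgeR, beside 16.9% of all genes, and 1, Fntb, with DESeq2 (19.2% of all genes), limma-voom (13.3%), at least 10 counts in every library (16.1%), log2(FPKM + 1) (14.1%) and without Db + Ato10 replicate 3 (29.9%); it ranged from 0 to 1 with a library left out. All genes called were 0 with edgeR, 884 with DESeq2, 1 on log2(TPM + 0.1) and from 0 to 1106 with a library left out. The median log2 fold change of the members was -0.11 on log2(TPM + 1) and ranged from -0.12 to 0.058 with a library left out.

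Signs turned for small differences. On log2(TPM + 1) and log2(TPM + 0.1), Pggt1b was at -0.048 and -0.053, Pdss1 at -0.020 and -0.026, while the medians over all genes were lower still, at -0.093 and -0.10, so both genes stayed above them. With a library left out, Pggt1b ranged from -0.050 to 0.12, Rabggta from -0.013 to 0.30, Icmt from -0.19 to 0.063 and Pdss1 from -0.037 to 0.33. The cause of these library effects was not tested.

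The libraries share only a replicate number: correlations of deviations between equal numbers were -0.15, 0.061 and 0.21, and not every library correlated best with its own number. With the replicate block 0 members and 0 of all genes were called, with 1856 genes at an unadjusted p under 0.05, and Fntb was at 0.47. Subunit ratios, their leave-one-out ranges and ratios of counts were chosen after seeing the data. With counts in place of TPM, the Fnta to Fntb difference was -0.68. Every member had at least 120 counts in each library, and counting error is largest for Fntb and Pdss1, with the fewest counts.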
